A study of Homo sapiens with 4 samples.

Results

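The genes described here are 41 named genes of autophagy and the lysosome, taken by symbol from a table of 20263 genes measured in HCT116, a cell line established from a human colorectal carcinoma. They were the TFEB family of transcription factors, the genes that start and build the autophagosome, the cargo receptors, the lysosomal membrane proteins and hydrolases, and 3 subunits of the lysosomal proton pump. All 41 were found in the table, and all 41 were among the 14044 genes with enough counts to be tested. The treated group was HCT116 cells given 32 µM HJ-4, a piperine derivative, for 24 h (2 libraries), and its control was HCT116 cells given 0.1% DMSO, the vehicle, for 24 h (2 libraries). The labels give the genotype of all 4 libraries as WT. The methods of the study describe biological replicates, but the labels do not say which libraries came from separate cultures, so part of the spread behind the p-values may be technical. The cells are 1 established line, and no other line or dose was sequenced in the samples used here.

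Autophagy encloses part of the cytoplasm in a double membrane, the autophagosome, which then fuses with the lysosome, where acid hydrolases degrade the content. Kinase complexes start the process, a lipid kinase marks the membrane, and ubiquitin-like conjugation couples proteins of the ATG8 family to it, to which cargo receptors bind. The transcription factors TFEB, TFE3 and MITF enter the nucleus when the kinase mTORC1 is inactive at the lysosome, and they bind a palindromic DNA element, the CLEAR element, in front of many lysosomal and autophagy genes. Much of autophagy is set by phosphorylation, location and turnover of proteins, which counts of RNA do not measure.

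Each library held 33762230 to 34359889 counts with HJ-4 and 29769568 to 31120459 counts with DMSO, and the least counted of the 41 genes in each library had 102 to 117 counts with HJ-4 and 104 to 111 with DMSO. The 41 genes took 0.463% and 0.468% of the counts in the HJ-4 libraries, against 0.459% and 0.443% in the DMSO libraries. The epithelial markers EPCAM, KRT8, KRT18, KRT19 and CDH1 summed to 4150 and 4320 CPM (counts scaled to the library total) with HJ-4, against 4500 and 4010 CPM with DMSO. Of the blood cell markers, CD3E was at 0 counts in every library and PTPRC at 0 and 2 with HJ-4 and at 0 in both DMSO libraries. All 5 summed to 48.4 and 52.3 CPM with HJ-4, against 41.9 and 35.3 CPM with DMSO, most of it from CD68, itself a lysosomal membrane protein, which had 1567 and 1682 counts with HJ-4 and 1256 and 1019 counts with DMSO. The part of these marker levels in the results was not tested. The stromal and endothelial markers summed to 59.2 and 61.5 CPM with HJ-4, against 64.3 and 60.9 CPM with DMSO, with DCN at 0 counts in every library.

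The CLEAR element is the sequence feature that ties the lysosomal genes to the TFEB family, and its core was looked for in front of the members. The core searched was TCACGTGA, which reads the same on both strands and contains the shorter E-box CACGTG, in windows of 250 bases before to 50 after each annotated start in RefSeq (GRCh38.p14). Windows were matched for 35 of the 41 members. The core was found for 6 of the 35 (17.1%), against 1.18% of the 27305 genes with a window, and CACGTG for 8 of the 35 (22.9%), against 8.77%. By window, the core was in 6 of the 46 windows of the members (13%) and in 0.98% of all 35116 windows. The core nearest to the start of each of the 6 genes is shown 5′ to 3′ on the strand of the gene, with GRCh38.p14 coordinates and the core in capitals.
LAMP1 (chr13:113297229-113297252, + strand): ggcgcagcTCACGTGAcaagcgct
MCOLN1 (chr19:7522601-7522624, + strand): ctaccgggTCACGTGAccgaggca
CTSA (chr20:45891301-45891324, + strand): gccggagtTCACGTGActcgtaca
GAA (chr17:80101541-80101564, + strand): cccgccggTCACGTGAcccgcctc
ATP6V0D1 (chr16:67481202-67481225, - strand): ccttatggTCACGTGAggcgcttg
ATG3 (chr3:112561943-112561966, - strand): gtctagtgTCACGTGAggccccgg
LAMP1, MCOLN1 and GAA each held 2 such cores. LAMP1 held 4 further CACGTG sites, ATG3 and CTSA 1 each, and ATG14 and CTSD 1 each with no full core. No window of SQSTM1, WIPI1, MAP1LC3B or TFEB held either string, which says only that these letters are not in those windows.

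As a group, the 41 genes stood close to their DMSO level after HJ-4. In RNA from whole cultures, fewer cells that express a gene and less of its RNA per cell cannot be told apart. Their median log2 fold change (HJ-4 over DMSO) was 0.02, with 23 positive and 18 negative, whereas the median of all 14044 genes tested was 0.004 and 50.7% were positive. Fold changes of the members ran from -0.47 for ATG5 to 0.47 for SQSTM1. None of the 41 passed an adjusted p of 0.05 in edgeR's quasi-likelihood test in either direction, where 0.0427% of all genes were called higher and 0.00712% lower. With the unadjusted p of edgeR held under 0.05, 3 members were higher, against 7.93% of all genes, and 1 was lower, also against 7.93%. DESeq2, another count test, called 2 members higher and 0 lower at an adjusted p under 0.05, against 2.15% and 1.53% of the genes it tested. Both libraries of HJ-4 exceeded both of DMSO for 9 members, against 25.2% of all genes, and were below both for 11, against 25.6% of all genes. The unadjusted p gave 7.32% of the members as higher, close to the background, and 2.44% as lower. The second share is 1 gene, too few to set against the background.

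**Figure D1:**
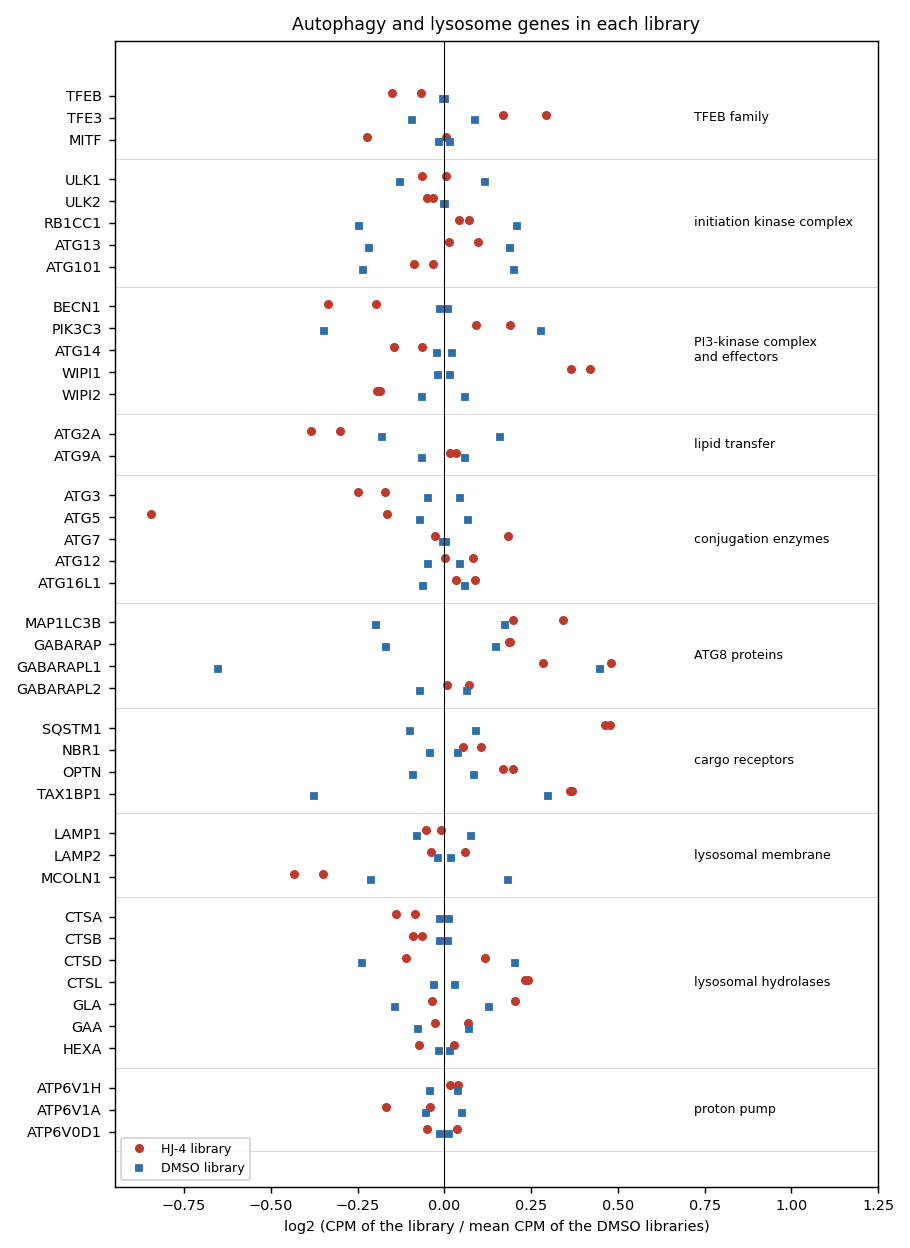
Level of each of the 41 genes in each library, as the log2 ratio to the mean of the DMSO libraries (horizontal axis), with genes grouped by role from top to bottom. Circles are HJ-4 libraries and squares DMSO libraries, and most points lie within 0.25 of 0. The HJ-4 points of 9 genes, SQSTM1 and WIPI1 among them, stand to the right of both DMSO points, which held for 25.2% of all genes.

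The cargo receptor gene SQSTM1 had the largest positive fold change. SQSTM1 encodes p62, which binds ubiquitin on cargo and ATG8 proteins on the autophagosome membrane and is itself degraded in the lysosome. Its level, in CPM scaled by TMM as for every CPM of a single gene below, was 679 and 671 in the HJ-4 libraries, against 519 and 455 in the DMSO libraries. The HJ-4 libraries were nearly equal and both lay above the DMSO libraries, which differed by 0.19 on the log2 scale. The means were 675 ± 5.06 CPM with HJ-4 and 487 ± 45.6 CPM with DMSO (SD, n = 2 each). The log2 fold change was 0.47 (standard error 0.09, 95% interval 0.23 to 0.71), with an adjusted p of 0.16 in edgeR and 0.0032 in DESeq2. SQSTM1 lies on chromosome 5 of GRCh38 from 179806398 to 179838078, and 21.0% of its annotated exon length overlaps MRNIP on the opposite strand. MRNIP had a log2 fold change of 0.10.

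The other cargo receptors had smaller fold changes, with intervals that include 0. For all 4 receptors both HJ-4 libraries were above both DMSO libraries, which held for 25.2% of all genes, and the fold changes of TAX1BP1 and NBR1 were no larger than the difference within a condition. TAX1BP1, a receptor that also binds ubiquitin, was at 142 and 143 CPM with HJ-4, against 85.2 and 136 CPM with DMSO. The log2 fold change of TAX1BP1 was 0.36 with all libraries (95% interval -0.22 to 0.94) and ran from 0.067 without DMSO replicate 1 to 0.739 without DMSO replicate 2. OPTN, the gene of optineurin, which takes part in the removal of mitochondria and bacteria, was at 85.3 and 87.1 CPM with HJ-4, against 71.3 and 80.5 CPM with DMSO (log2 fold change 0.18, 95% interval -0.06 to 0.43). NBR1, which acts beside p62 on ubiquitinated cargo, was at 260 and 251 CPM with HJ-4, against 235 and 249 CPM with DMSO (log2 fold change 0.08, 95% interval -0.12 to 0.28). The 4 receptors had a median log2 fold change of 0.27, and the adjusted p of TAX1BP1, OPTN and NBR1 in edgeR was 0.47, 0.40 and 0.64.

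**Figure D2:**
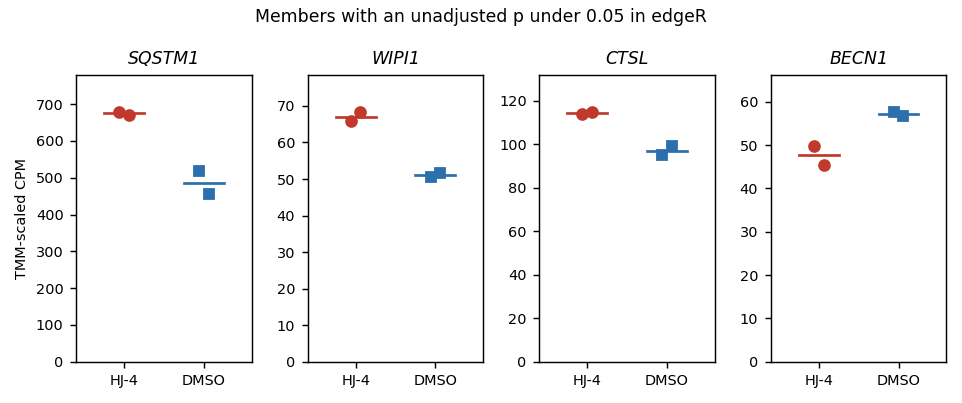
CPM (vertical axes from 0) of the 4 members with an unadjusted p under 0.05 in edgeR, with HJ-4 at the left and DMSO at the right of each panel. Points are libraries and lines group means; SQSTM1, WIPI1 and CTSL were higher in both HJ-4 libraries, and BECN1 was lower in both.

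Among the genes that mark the membrane, WIPI1 and BECN1 stood on opposite sides. WIPI1 encodes a protein that binds the lipid made by the autophagy PI3-kinase and is used as a marker of forming autophagosomes. It was at 65.8 and 68.3 CPM with HJ-4, against 50.5 and 51.7 CPM with DMSO, with means of 67.1 ± 1.82 and 51.1 ± 0.865 CPM (SD, n = 2 each). Libraries of a condition were close together and the conditions apart, with a log2 fold change of 0.39 (standard error 0.08, 95% interval 0.18 to 0.61), an adjusted p of 0.18 in edgeR and 0.036 in DESeq2. WIPI1 lies on chromosome 17 from 68420948 to 68457513, and 24.4% of its exon length overlaps ARSG, the gene of a lysosomal sulfatase, on the opposite strand. ARSG was at 37.3 and 32.0 CPM with HJ-4, against 20.3 and 21.0 CPM with DMSO (log2 fold change 0.75, adjusted p 0.12 in edgeR and 0.00074 in DESeq2). The library kit that the study names does not mark strand, so reads of these genes in the shared stretch cannot be told apart. ARSG was looked up because of this overlap, after its values were seen.

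BECN1, the gene of Beclin 1, a core subunit of the PI3-kinase complex, was at 49.9 and 45.4 CPM with HJ-4, against 57.6 and 56.7 CPM with DMSO. Both HJ-4 libraries lay under both DMSO libraries, and the log2 fold change was -0.26 (95% interval -0.51 to -0.02, adjusted p 0.29 in edgeR). BECN1 lies on chromosome 17 from 42810134 to 42833350, with 12.4% of its exon length shared with CNTD1, which had at most 4 counts in a library, and 4.7% with PSME3, both on the opposite strand. PIK3C3, the catalytic subunit, was at 40.3 and 37.6 CPM with HJ-4, between the DMSO libraries at 27.8 and 42.9 CPM, and ATG14, the subunit that directs the kinase to autophagy, was at 48.9 and 46.1 CPM with HJ-4, against 51.8 and 50.3 CPM with DMSO. The groups overlapped for PIK3C3, and for ATG14 both HJ-4 libraries were lower, with a log2 fold change of -0.10 (95% interval -0.33 to 0.12, adjusted p 0.60 in edgeR). ATG14 shares 20.8% of its exon length with FBXO34 on the opposite strand, which had a log2 fold change of -0.03. WIPI2, which recruits the conjugation machinery, was at 88.4 and 88.0 CPM with HJ-4, against 105 and 96.3 CPM with DMSO, a log2 fold change of -0.19 (95% interval -0.41 to 0.03). Of these 5 genes 2 had a positive and 3 a negative fold change.

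The ULK1 kinase complex, which starts autophagy under nutrient stress, showed fold changes smaller than the differences between libraries for 4 of its 5 genes. ULK1 was at 80.0 and 84.0 CPM with HJ-4, between the DMSO libraries at 90.7 and 76.7 CPM. RB1CC1 (FIP200), ATG13 and ATG101, the scaffold and regulatory subunits, also had both HJ-4 libraries between the DMSO libraries. For these 3 genes the DMSO libraries differed by 0.41 to 0.46 on the log2 scale, and the fold changes were 0.06, 0.06 and -0.06. ULK2, a second kinase of the complex, was at 23.5 and 23.7 CPM with HJ-4, against 24.3 and 24.3 CPM with DMSO, a log2 fold change of -0.04 (95% interval -0.28 to 0.19). No gene of the complex had a fold change over 0.06 in size.

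ATG2A, which moves lipids into the growing membrane, was at 43.6 and 46.2 CPM with HJ-4, against 63.5 and 50.2 CPM with DMSO. Its log2 fold change of -0.34 (95% interval -0.70 to 0.02, adjusted p 0.33 in edgeR) was about the size of the difference between the DMSO libraries, 0.34, and ran from -0.161 without DMSO replicate 1 to -0.503 without DMSO replicate 2. ATG9A, a lipid scramblase on vesicles that seed the membrane, was at 140 and 141 CPM with HJ-4, within the DMSO libraries at 132 and 144 CPM.

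Of the conjugation enzymes, ATG5 had the largest negative fold change of all 41 genes, and its size depended on which HJ-4 library was used. ATG5, which joins ATG12 and ATG16L1 in the complex that places ATG8 proteins on the membrane, was at 32.8 CPM in HJ-4 replicate 1 and 52.5 CPM in HJ-4 replicate 2, against 61.7 and 56.1 CPM with DMSO. The HJ-4 libraries thus differed by 0.68 on the log2 scale, more than the fold change of -0.47 (95% interval -1.07 to 0.14, adjusted p 0.40 in edgeR). The log2 fold change of ATG5 was -0.154 without HJ-4 replicate 1 and -0.858 without HJ-4 replicate 2. The first is smaller in size than the negative fold changes of MCOLN1, ATG2A, BECN1, ATG3 and WIPI2 with all libraries. ATG3, the E2-like enzyme of the ATG8 pathway, was at 39.5 and 41.7 CPM with HJ-4, against 48.4 and 45.4 CPM with DMSO (log2 fold change -0.21, 95% interval -0.45 to 0.04). It is the one conjugation gene with the CLEAR core in its window. ATG7, the E1-like enzyme, ATG12 and ATG16L1 had overlapping groups and fold changes of 0.08, 0.04 and 0.06. ATG12 was the most counted of them, at 190 and 180 CPM with HJ-4, against 185 and 174 CPM with DMSO. ATG7 shares 18.1% of its exon length with VGLL4 on the opposite strand. VGLL4 had a log2 fold change of -0.12 and 7937 counts summed over the libraries, against 3221 for ATG7.

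All 4 ATG8 genes among the members had positive fold changes, with a median of 0.23, each smaller than the difference between the DMSO libraries. MAP1LC3B, whose product LC3B is the usual marker protein of autophagosomes, was at 152 and 168 CPM with HJ-4, against 150 and 116 CPM with DMSO. HJ-4 replicate 1 and DMSO replicate 1 were nearly equal, and the log2 fold change of 0.27 (95% interval -0.11 to 0.65, adjusted p 0.43 in edgeR) was smaller than the difference of 0.37 between the DMSO libraries, and ran from 0.095 without DMSO replicate 2 to 0.469 without DMSO replicate 1. Its near copy MAP1LC3B2, which may share reads with it, had 47 and 29 counts with HJ-4, against 43 and 13 with DMSO, far fewer than the reads of MAP1LC3B. GABARAP, whose product binds the ULK1 complex as well as cargo receptors, was at 72.8 and 72.6 CPM with HJ-4, against 70.9 and 56.9 CPM with DMSO. A gene on the same strand with 35.4% of the exon length of GABARAP in common (ENSG00000262526) had 303 and 322 counts with HJ-4, against 320 and 608 with DMSO, and its part in the GABARAP value was not tested. GABARAPL1 was at 32.4 and 28.3 CPM with HJ-4, against 31.7 and 14.8 CPM with DMSO, so that DMSO replicate 2 alone was low. Its log2 fold change was 0.38 with all libraries (95% interval -0.54 to 1.31), -0.06 without DMSO replicate 2 and 1.04 without DMSO replicate 1. GABARAPL2 was at 87.3 and 83.4 CPM with HJ-4, against 86.9 and 79.2 CPM with DMSO, a log2 fold change of 0.04.

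**Figure D3:**
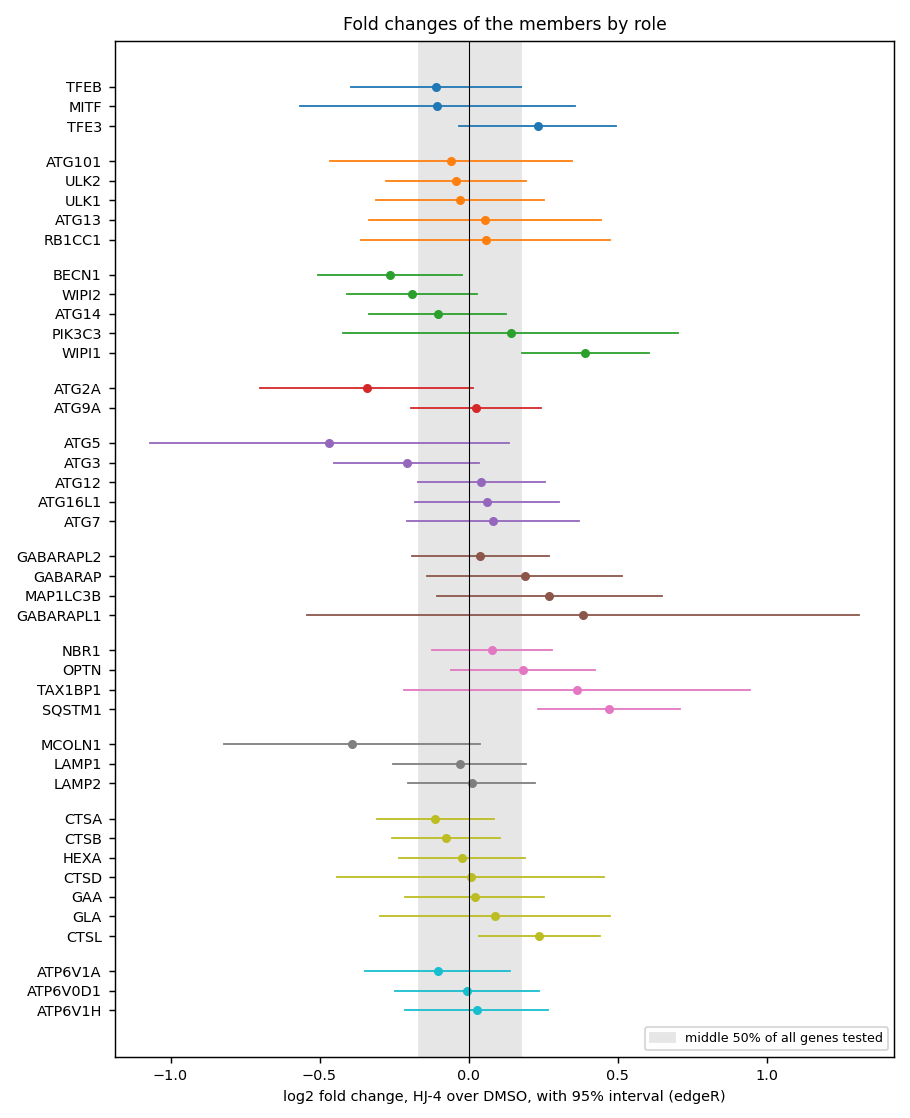
Log2 fold change (HJ-4 over DMSO) of each of the 41 genes with its 95% interval from edgeR, with roles in the order TFEB family, initiation kinase complex, PI3-kinase complex and effectors, lipid transfer, conjugation enzymes, ATG8 proteins, cargo receptors, lysosomal membrane, hydrolases and proton pump. The grey band holds the middle of the fold changes of all genes tested, from -0.17 to 0.18; the intervals of SQSTM1, WIPI1, CTSL and BECN1 do not reach 0.

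The lysosomal hydrolases had a median log2 fold change of 0.01, with 4 of 7 positive. CTSL, the gene of the cysteine protease cathepsin L, was at 114 and 115 CPM with HJ-4, against 95.01 and 99.1 CPM with DMSO, and both conditions were tight. Its log2 fold change was 0.24 (standard error 0.08, 95% interval 0.04 to 0.44), with an adjusted p of 0.27 in edgeR and 0.28 in DESeq2. CTSL lies on chromosome 9 from 87724051 to 87731469. CTSB, the gene of cathepsin B and the most counted hydrolase, was at 520 and 529 CPM with HJ-4, against 549 and 557 CPM with DMSO, a log2 fold change of -0.08 (95% interval -0.26 to 0.11). CTSA, a serine carboxypeptidase that also protects other hydrolases, was at 181 and 188 CPM with HJ-4, against 201 and 197 CPM with DMSO, a log2 fold change of -0.11 (95% interval -0.31 to 0.08). For both CTSB and CTSA the HJ-4 libraries lay under the DMSO libraries, which held for 25.6% of all genes.

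CTSD, the aspartic protease cathepsin D, was at 107 and 126 CPM with HJ-4, within the DMSO libraries at 133 and 98.2 CPM. It shares 22.9% of its exon length with a gene on the same strand (ENSG00000250644), which had 399 and 291 counts with HJ-4, against 298 and 412 with DMSO. GAA, the acid alpha-glucosidase that breaks down glycogen, was at 255 and 272 CPM with HJ-4, against 273 and 246 CPM with DMSO. HEXA, the alpha subunit of beta-hexosaminidase, was at 71.7 and 76.9 CPM with HJ-4, against 74.6 and 76.2 CPM with DMSO, and GLA, alpha-galactosidase A, at 20.9 and 17.7 CPM with HJ-4, against 16.5 and 19.9 CPM with DMSO. The groups of these 4 genes overlapped, and their fold changes were between -0.02 and 0.09. GLA shares 9.0% of its exon length with RPL36A on the opposite strand. RPL36A had 65435 counts summed over the libraries, against 2421 for GLA, and its part in the GLA value was not tested.

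The lysosomal membrane genes LAMP1 and LAMP2, whose glycoproteins coat the inner face of the membrane, did not differ beyond their spread. LAMP1 was at 369 and 380 CPM with HJ-4, against 403 and 362 CPM with DMSO, a log2 fold change of -0.03 (95% interval -0.25 to 0.19). LAMP2 was at 117 and 109 CPM with HJ-4, against 114 and 111 CPM with DMSO, a log2 fold change of 0.01 (95% interval -0.20 to 0.22). MCOLN1, the calcium channel that signals from the lysosome to TFEB through calcineurin, was at 11.6 and 12.3 CPM with HJ-4, against 17.7 and 13.5 CPM with DMSO. Its log2 fold change of -0.39 (95% interval -0.82 to 0.04, adjusted p 0.34 in edgeR) was about equal to the difference between the DMSO libraries, 0.40, and ran from -0.179 without DMSO replicate 1 to -0.576 without DMSO replicate 2. A gene on the same strand that shares 4.3% of its exon length (ENSG00000268614) had 86 and 11 counts with HJ-4 and 0 in both DMSO libraries, against 394 and 409 counts of MCOLN1 with HJ-4 and 557 and 406 with DMSO, and its part in the MCOLN1 value was not tested.

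The 3 subunits of the V-ATPase, the pump that acidifies the lysosome, had fold changes between -0.10 and 0.03. ATP6V1A, the catalytic subunit, was at 63.7 and 58.4 CPM with HJ-4, against 63.3 and 68.0 CPM with DMSO (95% interval of the log2 fold change -0.35 to 0.14). ATP6V1H, a regulatory subunit, was at 31.7 and 32.2 CPM with HJ-4, against 32.2 and 30.5 CPM with DMSO (95% interval -0.21 to 0.27). ATP6V0D1, which links the 2 sectors of the pump, was at 31.5 and 29.7 CPM with HJ-4, against 31.0 and 30.5 CPM with DMSO (95% interval -0.25 to 0.24). The groups overlapped for all 3.

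Of the TFEB family, TFE3 was the main member in these cells and TFEB and MITF were low. In TPM, a level that is divided by the annotated exon length so that genes can be compared, TFE3 was at 77.9 with HJ-4 and 65.6 with DMSO, TFEB at 6.42 and 6.83, and MITF at 1.49 and 1.59. TFE3 was at 92.0 and 100 CPM with HJ-4, against 87.0 and 76.7 CPM with DMSO, with both HJ-4 libraries higher (log2 fold change 0.23, 95% interval -0.03 to 0.50, adjusted p 0.35 in edgeR). TFEB was at 12.3 and 13.01 CPM with HJ-4, against 13.7 and 13.6 CPM with DMSO, with both HJ-4 libraries slightly lower (log2 fold change -0.11, 95% interval -0.39 to 0.18). MITF was at 3.00 and 3.51 CPM with HJ-4, against 3.54 and 3.46 CPM with DMSO, and its groups overlapped.

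The 6 members with the CLEAR core in their window, LAMP1, MCOLN1, CTSA, GAA, ATP6V0D1 and ATG3, had fold changes from -0.39 to 0.02 with a median of -0.07, and 1 was positive. For 3 of them, MCOLN1, CTSA and ATG3, both HJ-4 libraries lay below both DMSO libraries, and for none above, against 25.6% and 25.2% of all genes. The 29 members with a window and no core had a median of 0.06, and 19 were positive. None of the 6 had an unadjusted p under 0.05 in edgeR, and the difference between these small lists was not tested.

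Levels spanned a wide range among the 41 genes. In TPM, SQSTM1 was the highest with HJ-4 at 306 (218 with DMSO), followed by LAMP1 at 223 (225 with DMSO), GAA at 171 (166 with DMSO) and CTSB at 170 (177 with DMSO). The small ATG8 genes GABARAP and MAP1LC3B reached 127 and 108 TPM with HJ-4, against 110 and 88.7 TPM with DMSO. The kinase genes ULK2 and PIK3C3 were low, at 8.16 and 8.78 TPM with HJ-4, against 8.30 and 7.86 TPM with DMSO.

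For most members the fold change was no larger than the difference between libraries treated alike. The log2 fold change was smaller in size than the larger of the 2 differences within a condition for 27 of the 41 genes (65.9%), against 62.9% of 13969 genes with a value in every library. The median size of the fold change was 0.10 among the members and 0.17 among those genes. Replicates of the members differed by a median of 0.08 with HJ-4 and 0.12 with DMSO on the log2 scale, against 0.12 and 0.16 for those genes. For 29 of the 41 genes the 95% interval of the log2 fold change lay within 0.5 of 0, and for 39 within 1, the exceptions being ATG5 and GABARAPL1.

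**Figure D4:**
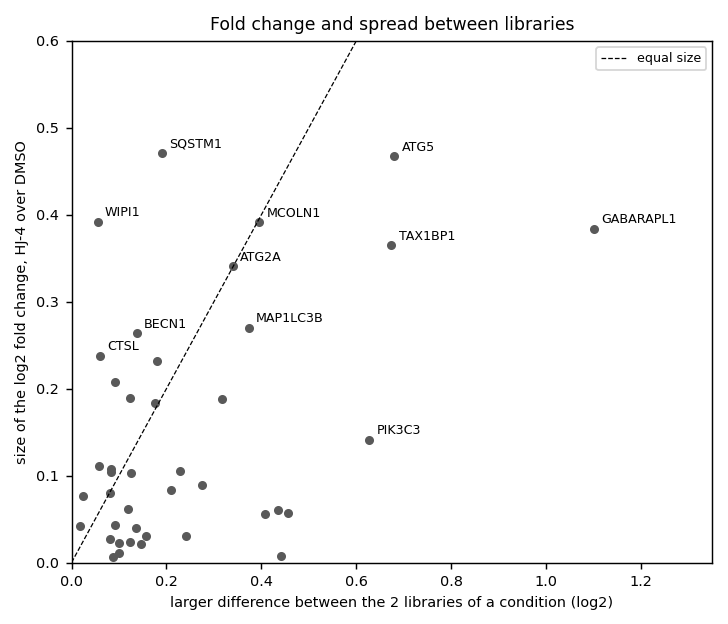
Size of the log2 fold change (vertical axis) against the larger difference between the 2 libraries of a condition (horizontal axis, log2) for the 41 genes. Points above the dashed line have a fold change larger than that difference; SQSTM1 at 0.47 and WIPI1 at 0.39 lie above it, and GABARAPL1, ATG5, TAX1BP1 and PIK3C3 lie well to the right of it.

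Outside the 41 genes, the other 166 genes of the pathway that were looked up also had a median near 0. Of 159 tested, 0 passed an adjusted p of 0.05 in edgeR, 79 had a positive fold change and the median was -0.002. With the unadjusted p held to 0.05, 8 were higher (5.03%) and 10 lower (6.29%), against 7.93% of all genes in each direction. DESeq2 called 1 higher and 4 lower, against 2.15% and 1.53% of the genes it tested. Of 41 other autophagy genes tested, 3 were higher (7.32%) and 6 lower (14.6%) by the unadjusted p in edgeR. Their median log2 fold change was 0.01. BNIP3, a mitophagy receptor of the mitochondrial outer membrane, was at 97.3 and 105 CPM with HJ-4, against 185 and 171 CPM with DMSO. Both HJ-4 libraries lay far below the DMSO libraries, and the log2 fold change was -0.82 with a standard error of 0.09 (adjusted p 0.086 in edgeR and 1.8e-09 in DESeq2). VMP1, a lipid scramblase of the endoplasmic reticulum needed to form autophagosomes, was at 116 and 112 CPM with HJ-4, against 180 and 182 CPM with DMSO. The log2 fold change of VMP1 was -0.67 with a standard error of 0.08 (adjusted p 0.086 in edgeR and 2.3e-08 in DESeq2). PLEKHM1, an adaptor for fusion with the lysosome, was at 39.8 and 42.4 CPM with HJ-4, against 55.7 and 55.6 CPM with DMSO (log2 fold change -0.44, adjusted p 0.17 in edgeR and 0.023 in DESeq2).

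Of 20 genes of mTORC1 and nutrient sensing at the lysosome, 2 were higher (10%) and 0 lower by the unadjusted p in edgeR. The share of all genes was 7.93% in each direction. The median log2 fold change of the list was -0.006. LAMTOR1, which anchors the Ragulator complex and thereby mTORC1 to the lysosome, was at 53.4 and 52.2 CPM with HJ-4, against 31.4 and 29.3 CPM with DMSO. The conditions were well apart, and the log2 fold change was 0.80 with a standard error of 0.09 (adjusted p 0.086 in edgeR and 4.5e-07 in DESeq2). The log2 fold changes of DEPTOR, an inhibitory partner of mTOR, and FNIP2, a partner of folliculin, were 0.36 and -0.22 (adjusted p 0.30 and 0.42 in edgeR).

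The other lysosomal lists stayed near 0. Of 41 other hydrolases tested, 2 were higher (4.88%) and 1 lower (2.44%) by the unadjusted p in edgeR, against 7.93% of all genes in each direction. That balance turned to 0 higher and 4 lower when libraries were scaled by total counts, against 6.57% and 9.88% of all genes. The median log2 fold change of these hydrolases was -0.03. MANBA and DNASE2, which degrade glycans and DNA, had log2 fold changes of 0.23 and 0.24, and edgeR gave both an adjusted p of 0.31. Of 39 other membrane and trafficking genes, 1 was higher (2.56%) and 2 were lower (5.13%), with a median of -0.003. M6PR, a receptor that carries hydrolases to the lysosome, was at 35.1 and 40.2 CPM with HJ-4, against 49.1 and 70.7 CPM with DMSO (log2 fold change -0.67, adjusted p 0.24 in edgeR and 0.060 in DESeq2, and -0.384 without DMSO replicate 2), while the sorting receptor SORT1 was at -0.21 on the same scale and the lysosomal phosphatase gene PIP4P1 at 0.33. Of 18 other V-ATPase subunits tested, 0 were higher and 1 was lower (5.56%), with a median of -0.02. ATP6V1D was lower by a log2 fold change of -0.40 (edgeR adjusted p 0.31), and ATP6V1E2 and ATP6V0E2 had 0.33 and 0.51, the second with DMSO replicate 2 at 15.8 CPM and the other 3 libraries between 30.2 and 33.5 CPM. The log2 fold change of ATP6V0E2 was 0.118 without DMSO replicate 2 and 1.055 without DMSO replicate 1.

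**Figure D5:**
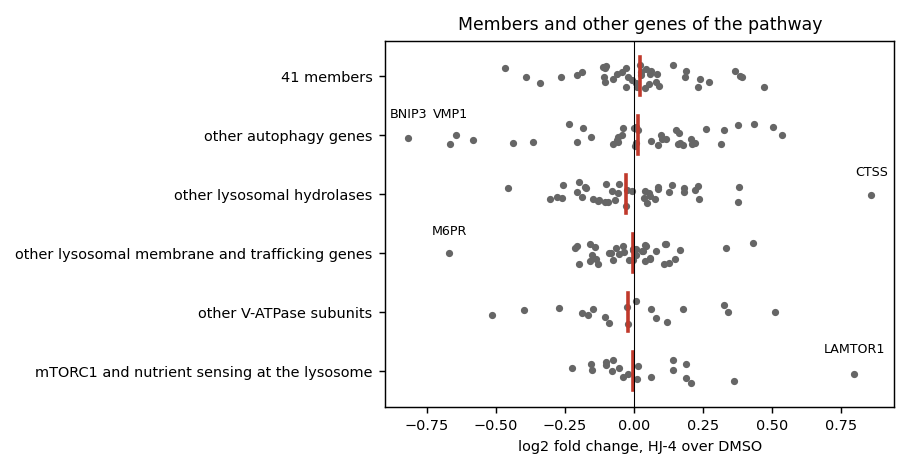
Log2 fold change (HJ-4 over DMSO, horizontal axis) of each tested gene of the 41 members and of 5 lists of other genes of the pathway. Points are genes, spread vertically only for display, and red lines are medians, which lie between -0.03 and 0.02; BNIP3, VMP1, M6PR and LAMTOR1 are marked, and CTSS, at 0.86, was counted at under 1 CPM in every library and was marked after its values were seen.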

How the data were processed

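RNA was sequenced from HCT116 cells treated with HJ-4 or DMSO. The paper describes biological triplicates, and 2 libraries per condition were analysed here. The table the authors deposited holds unnormalized whole-number read counts for each gene. For alignment and counting, the paper's methods name STAR with GRCh38 and featureCounts, whereas HISAT2, RSEM and bedtools stand in the submitters' processing notes. The tool behind the table and its annotation are not given in the sources used here. Overlapping genes or near copies may share reads. IDs were matched to GENCODE version 44 (20148 of 20263). Genes were kept by filterByExpr (14044), scaled by TMM and tested by glmQLFit and glmQLFTest in edgeR 4.0.16 under R 4.3.3, in a model of condition alone, with p-values adjusted by Benjamini-Hochberg across all genes. The paper names limma; edgeR was used because the values are counts. Standard errors were derived from the F statistic, and 95% intervals from its degrees of freedom. TPM used the union of annotated exons. The alternatives were DESeq2 1.42.0, limma-voom (limma 3.58.1), other scalings and filters, a replicate block and leaving out each library. The script was tested on simulated data with log2 changes of 1 and 2 planted in 100 genes each. Changes as small as those of the members, at most 0.47 in size, were not planted. At an adjusted p under 0.05, edgeR found 55 and 95 of them, with 27 false calls. DESeq2 found 68 and 92, with 49 false calls. Replicates were distinct libraries: chi-square over its degrees of freedom was 21.9 between the HJ-4 pair and 36.5 between the DMSO pair. All 41 members are named, and up to 3 genes of each other list with the smallest p among those with separate groups; 1 gene that this rule names is not reported here. Members and lists were chosen with earlier results of these data known.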

Additional observations from a re-analysis of the deposited data

How the results depend on the processing

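With 2 libraries per condition, the number of libraries limits the precision of every value here. No member passed the adjusted threshold of 0.05 with edgeR under any scaling, filter, block or omitted library, or with limma-voom, and 22 of the 41 kept the sign of their fold change in every alternative. With DESeq2, 2 of the 41 members passed higher (SQSTM1 and WIPI1), as did 1 of 20 genes of mTORC1 and nutrient sensing. Of 41 other autophagy genes tested, 4 passed lower. Of all genes that DESeq2 tested, 2.15% passed higher and 1.53% lower. By the unadjusted p of DESeq2 under 0.05, 3 members were higher and 2 lower, against 5.73% and 5.31% of the genes it tested. Scaling by total counts moved the median of all genes to -0.025, the median of the members to -0.008, that of the mTORC1 list to -0.035, the median log2 fold change of the other autophagy genes to -0.015 and that of the other membrane and trafficking genes to -0.032; 3 members were then lower at an unadjusted p under 0.05 (9.88% of all genes), and the log2 fold change of ATG9A (-0.005), LAMP2 (-0.018), CTSD (-0.021), GAA (-0.008) and ATP6V1H (-0.002) became negative. By the same p and scaling, the other autophagy genes had 0 higher and 7 lower and the other hydrolases 0 and 4. The shares of all genes were then 6.57% and 9.88%. With no filter the other hydrolases had 1 and 0, against 6.87% and 6.74% of all genes. When 1 library was left out at a time, 1 to 8 members were higher and 0 to 4 lower by the unadjusted p (8 and 4 when DMSO replicate 2 was omitted, where 11.9% and 8.90% of all genes were; 6 and 0 for DMSO replicate 1, against 9.23% and 7.62%; 1 and 1 for HJ-4 replicate 2, against 3.79% and 4.50%; and 2 and 0 for HJ-4 replicate 1, against 3.94% and 3.26%), and 0 to 88 genes passed over the whole table. The medians ran from -0.019 to 0.020 for the members, -0.030 to 0.039 for the mTORC1 list, -0.026 to 0.084 for the other autophagy genes, -0.091 to 0.002 for the other hydrolases and -0.076 to 0.020 for the other V-ATPase subunits. The log2 fold changes of 19 members then spanned 0: ATG101 -0.261 to 0.174, ATG12 -0.003 to 0.089, ATG13 -0.133 to 0.273, ATG7 -0.039 to 0.196, ATG9A -0.036 to 0.086, ATP6V0D1 -0.038 to 0.024, ATP6V1H -0.013 to 0.068, CTSD -0.197 to 0.245, GAA -0.052 to 0.096, GABARAPL1 -0.064 to 1.038, GABARAPL2 -0.027 to 0.109, GLA -0.041 to 0.231, HEXA -0.087 to 0.040, LAMP1 -0.107 to 0.050, LAMP2 -0.027 to 0.047, MITF -0.236 to 0.017, PIK3C3 -0.139 to 0.487, RB1CC1 -0.153 to 0.301 and ULK1 -0.147 to 0.097. SQSTM1 ran from 0.377 to 0.570 and WIPI1 from 0.351 to 0.432. The cause of these shifts was not tested. With the replicate number as a block, 2 members were higher and 1 lower by the unadjusted p, against 6.64% and 5.89% of all genes. No member passed an adjusted p of 0.05 with this block. Among all genes tested, 31 passed with the block, against 7 without it, 12 with no filter and 505 with DESeq2. The deviations of same-numbered libraries had a correlation of -0.043 across genes. This single value cannot show whether same-numbered libraries shared a culture or handling, which was not tested.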
